A study of Mus musculus with 12 samples.

Results

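Granulocyte-monocyte progenitors (GMP) and pro-B cells without reporter activity (hCD4- pro-B) were compared over all genes of the array, as 2 arrays against 2. They were taken by their titles from a series of 12 arrays in 6 groups of 2, so 4 of 12 arrays enter the comparison, and the other 8 serve to estimate the spread between replicates. All cells were sorted by flow cytometry from the bone marrow of female C57BL/6 mice aged 16 weeks that carry Cebpa-Enh/prom-hCD4, a human CD4 surface protein (hCD4) placed under enhancer and promoter sequence of Cebpa. The GMP were positive for hCD4 and the pro-B cells negative, so both groups carry the reporter and the sort itself separated them by the activity of Cebpa regulatory sequence as well as by cell type. The remaining groups are hCD4+ pro-B cells, pre-pro-B cells with and without hCD4, and pre-B cells, for which no hCD4 status is labelled. The antibodies of the sort are not given in the sources used here, and a surface gene that defined a gate would differ between the groups by construction. The series title speaks of 2 mice, but the labels do not tie the replicate numbers to animals, so p-values measure only the spread between these samples, and the small number of arrays limits the precision.

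GMP are progenitors of the bone marrow that give rise to neutrophils, monocytes and related cells, and they are known for making the enzymes of the primary (azurophil) granules before any other granule content. C/EBP factors, with PU.1, switch on those granule genes and the receptors for colony-stimulating factors. Pro-B cells have been committed to the B lineage by E2A, EBF1 and PAX5, they join antibody heavy chain gene segments with the RAG recombinase, they make the surrogate light chain that will form the pre-B receptor, and they depend on interleukin 7. A gene was tested where at least 1 of the 6 groups had both its arrays well over background, and listed genes left out had no probe of that name or did not meet this, so counts over the tested members of a list describe those members only. Levels below are log2 processed signals minus the 75th percentile of their own array, so a level of 0 is the brightness of that percentile, and a change is the GMP mean minus the hCD4- pro-B mean on that log2 scale. A gene is called higher or lower where the Benjamini-Hochberg adjusted p of limma over all 18559 genes tested was under 0.05. Sorted cells were measured in bulk, so fewer cells of a type and less RNA per cell cannot be told apart.

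The 4 arrays were of similar quality. Their 75th percentile lay at 953 and 658.8 units of processed intensity in GMP and 625.6 and 724.3 in hCD4- pro-B, and 51.0% to 55.4% of the probes rose well over background. Replicates correlated at 0.990 in GMP and 0.991 in hCD4- pro-B over genes, and arrays of different groups at 0.895 to 0.896. The GMP arrays lie on one slide, scanned in one run, and the hCD4- pro-B arrays on another, so slide, scan and group cannot be told apart.

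The labels were checked against markers of each cell type. All 10 GMP markers (Cebpa, Mpo, Elane, Prtn3, Ctsg, Ms4a3, Cd34, Kit, Csf1r and Fcgr3) were well above background on both GMP arrays, against 7 and 6 of them on the hCD4- pro-B arrays. All 11 pro-B markers, among them Ebf1, Pax5, Cd79a, Cd79b, Igll1, Vpreb1, Vpreb3, Rag1, Il7r and Blnk, were above background on both hCD4- pro-B arrays, against 5 and 4 on the GMP arrays. The summed signal of the GMP markers had a log2 of 10.02 and 10.29 on the GMP arrays and 2.04 and 2.17 on the hCD4- pro-B arrays, and that of the pro-B markers 3.14 and 3.29 against 9.94 and 9.90. Each group thus held the markers of its label. For Cebpa this was in part selected by the hCD4 sort, and any surface marker used as a gate would differ by construction. Some markers of the other label were measured in it as well: Cd79b stood at 2.99 and 3.16 on the GMP arrays, and on the hCD4- pro-B arrays Kit stood at 0.33 and 0.46 and Csf1r at 0.31 and 0.24.

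Some markers of other marrow cells were measured on these arrays. Of 10 markers of mature neutrophils, 5 and 5 were above background on the GMP arrays and 8 and 7 on the hCD4- pro-B arrays. Their summed log2 signal was 2.23 and 1.54 in GMP and 4.69 and 3.82 in hCD4- pro-B. Mmp9 and Cd177 were not above background on any of the 4 arrays. The brightest members in hCD4- pro-B were S100a9 and S100a8, whose calls are weak or absent, as given below. Ltf, Camp, Ngp and Retnlg were also brighter on both hCD4- pro-B arrays. Mmp8 went against the sum, at -1.95 and -2.05 in GMP against -4.05 and -5.24 in hCD4- pro-B. Lcn2 did not separate the groups, at -0.39 and -0.01 against -0.29 and -1.27. Of 8 plasma cell markers, 3 and 3 against 7 and 7 were above background (summed log2 signal 4.61 and 4.53 against 5.81 and 5.66), with Tnfrsf17 below it on all 4 arrays. Xbp1 in this set ran the other way, at 4.59 and 4.50 in GMP against 3.26 and 3.01 in hCD4- pro-B. Of 8 T cell markers the counts were 3 and 3 against 6 and 6 (summed 0.72 and 1.34 against 3.90 and 4.06), and Cd3g and Bcl11b stayed below background on all 4. The erythroid set of 8 gave 2 and 2 against 6 and 5 (summed -1.72 and -1.54 against -0.02 and 0.11), with Alas2 below background throughout. The summed signal of these 4 sets was thus higher on both hCD4- pro-B arrays than on either GMP array. In hCD4- pro-B the brightest plasma cell marker was Mzb1, under a clone name on the array, at 5.03 and 4.99. The brightest T cell marker there was Lck, at 3.27 and 3.42. Both were also above background on the hCD4+ pro-B and pre-B arrays. The basophil and mast cell set was brighter on the GMP arrays, with 6 and 6 of 6 markers above background against 5 and 5 and a summed log2 signal of 3.96 and 3.73 against 0.87 and 1.15.

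A large share of the transcripts measured differed between the cell types, in nearly equal parts up and down. Of 18559 genes, 4102 were higher in GMP (22.1%) and 4292 lower (23.1%), or 45.2% in all, and the median change over all genes was 0.01. The large differences lay more often on the pro-B side: 1933 called genes were higher by over 1 on the log2 scale and 2552 lower, and 504 against 706 differed by over 3. Of the called genes, 432 higher ones were not above background on either hCD4- pro-B array and 1061 lower ones were not above background on either GMP array. The balance of directions depends on the scaling: with each array scaled to its median instead of its 75th percentile, 65.7% of called genes were higher in GMP, against 48.9% here, and the median over all genes moved to 0.27. Of 1970 called genes with a further probe kept, 1820 (92.4%) had the same sign at every one of their probes.

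**Figure D1:**
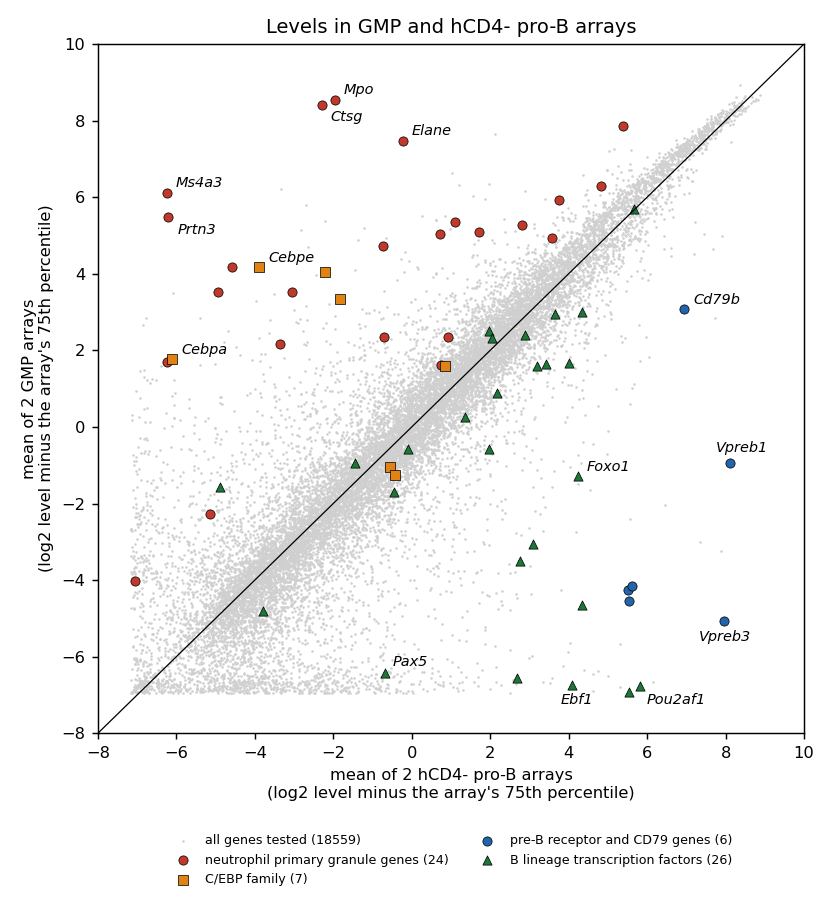
Mean log2 level (minus each array's 75th percentile) of every gene tested, with the 2 hCD4- pro-B arrays on the x axis and the 2 GMP arrays on the y axis; the line marks equal levels, and 4 gene lists are coloured. Genes of the primary granule list and those of the C/EBP list called higher lie above the line, and the 6 pre-B receptor and CD79 genes lie below it at the right.

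The C/EBP transcription factors of the myeloid lineage were far higher in GMP. Cebpa, whose enhancer and promoter drive the reporter, stood at 1.96 and 1.58 on the GMP arrays and at -5.38 and -6.84 on the hCD4- pro-B arrays, where neither array was above background. The probe lies on chromosome 7 at 35906517 to 35906576 (mm9). Cebpa was at least 97.0-fold higher in GMP, counted against the dimmest probes that those arrays still measured above background (change 7.88, standard error 0.49, adjusted p = 4.70e-06). Since the reporter was part of the sort, the Cebpa difference was to some degree selected. Cebpe, the factor of late granulocyte maturation, stood at 4.16 and 4.18 in GMP against -3.53 and -4.24, a change of 8.05 (standard error 0.53, adjusted p = 6.36e-06). For both genes the 2 GMP arrays lay close together and far above the hCD4- pro-B arrays, which were above background for Cebpe. Cebpd, a factor induced by cytokines, stood at 4.26 and 3.84 against -1.78 and -2.62 and changed by 6.25 (standard error 0.46, adjusted p = 1.29e-05). Cebpb, which acts in emergency production of granulocytes and in macrophages, stood at 3.28 and 3.40 against -1.71 and -1.93 and changed by 5.16 (standard error 0.23, adjusted p = 7.24e-07). Of the 7 genes on the C/EBP list, 5 were higher and 0 lower, with a median of 5.16 beside 0.01 for all genes, of which 22.1% were higher. The other rise was that of Cebpz (0.76, standard error 0.11), which was listed by its name and is not a true member of the family. Cebpg (-0.50, standard error 0.21) and Ddit3 (-0.83, standard error 0.52) were not called.

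Other transcription factors of myeloid cells differed less, and the pro-B arrays measured several of them too. Sfpi1, the older name of the PU.1 gene Spi1, was dim in both groups, at -1.12 and -1.49 in GMP and -3.70 and -3.72 in hCD4- pro-B, and changed by 2.40 (standard error 0.29, adjusted p = 2.23e-04). Irf8, which directs monocyte and dendritic cell fate and is also used in B cells, was bright in both groups, at 5.48 and 5.47 against 3.89 and 3.75, and changed by only 1.66 (standard error 0.12, adjusted p = 1.38e-05). Gfi1, a repressor needed by neutrophils and by early lymphocytes, stood at 3.20 and 3.24 against 2.59 and 2.52 and was higher in GMP by 0.67 (standard error 0.20, adjusted p = 0.0232). The Gfi1 call rests on few data. It ended when any single array was left out, with adjusted p = 0.0713 without GMP replicate 1, 0.0871 without GMP replicate 2, 0.0739 without hCD4- pro-B replicate 1 and 0.0997 without hCD4- pro-B replicate 2, and it ended with quantile normalization (0.0646). Mitf and Gata2, factors of mast cells and basophils, were higher by 4.35 (standard error 0.23) and 2.94 (standard error 0.44), the vitamin D receptor gene Vdr was at least 15.3-fold higher, and the erythroid and megakaryocytic factor Nfe2 was higher by 4.06 (standard error 0.32). In all, 13 of 24 myeloid transcription factors kept of 25 listed were higher and 1 was lower (median 0.85), the lower one being Irf5 (-0.96, standard error 0.21, adjusted p = 0.0556 with array-median scaling), while Runx1 (0.35, standard error 0.18) and Klf4 (0.32, standard error 0.20) were not called.

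Receptors for the growth factors of myeloid cells were mostly higher in GMP. Csf1r, which binds the macrophage growth factor M-CSF, stood at 5.43 and 5.57 in GMP against 0.31 and 0.24, a change of 5.23 (standard error 0.34, adjusted p = 5.57e-06), but 4.80 and 0.83 at its further probes. The shared beta chain of the receptors for GM-CSF, interleukin 3 and interleukin 5, Csf2rb, stood at 3.25 and 3.12 against 0.44 and 0.44 and was higher by 2.74 (standard error 0.15, adjusted p = 1.87e-06), and the GM-CSF receptor alpha chain gene Csf2ra by 1.42 (standard error 0.12, adjusted p = 2.94e-05). Both chains were therefore measured well above background in hCD4- pro-B arrays as well. The interleukin 6 receptor gene Il6ra was higher by 5.54 (standard error 0.14) and the TNF receptor gene Tnfrsf1a by 4.22 (standard error 0.14). Kit, the receptor for stem cell factor that pro-B cells use too, lay at 2.51 and 2.69 in GMP and 0.33 and 0.46 in hCD4- pro-B and was higher by 2.21 (standard error 0.18, adjusted p = 2.06e-05). The Csf3r probe, for the G-CSF receptor, stood at 6.25 and 6.29 against 6.61 and 6.63, a difference of -0.35 (standard error 0.20) with no call (adjusted p = 0.185). Its mean over the 6 groups ran from 6.27 in GMP to 7.07 in pre-B arrays, and the difference was called with quantile normalization (-0.60). Flt3, the receptor of early lymphoid progenitors, gave a difference of 0.66 (standard error 0.33) with no call (adjusted p = 0.146), and its other probes gave 0.39 and -0.93. Over the list, 13 of 22 receptors were higher and 2 lower, with a median of 1.5. Among the lower ones was the TGF-beta receptor gene Tgfbr2 (-2.43, standard error 0.17).

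All tested genes of the primary granule list were higher in GMP. Promoter sequence of Mpo, Elane, Prtn3 and Ctsg is shown. These 4 genes encode the main granule peroxidase and serine proteases, were among the largest rises and moved together. Only windows of reference genes that held a searched motif could be shown, so a motif in each was fixed in advance. The windows of Ms4a3 and Cebpa held none and were left out. Each window holds the 250 bases before the RefSeq transcript start on GRCm38.p6, written in the direction of transcription. Capitals mark GAGGAA, the core sequence that PU.1 and other Ets factors recognise.
Mpo: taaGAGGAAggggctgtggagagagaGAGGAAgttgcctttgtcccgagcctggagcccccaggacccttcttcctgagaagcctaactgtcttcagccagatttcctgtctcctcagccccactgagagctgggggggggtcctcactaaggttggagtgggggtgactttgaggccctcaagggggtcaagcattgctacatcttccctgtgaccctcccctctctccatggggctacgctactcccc
Elane: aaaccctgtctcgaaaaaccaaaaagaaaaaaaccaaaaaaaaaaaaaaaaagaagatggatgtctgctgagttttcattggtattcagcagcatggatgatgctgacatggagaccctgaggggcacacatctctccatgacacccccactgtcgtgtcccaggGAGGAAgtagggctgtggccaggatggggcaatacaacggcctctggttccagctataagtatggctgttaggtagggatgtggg
Prtn3: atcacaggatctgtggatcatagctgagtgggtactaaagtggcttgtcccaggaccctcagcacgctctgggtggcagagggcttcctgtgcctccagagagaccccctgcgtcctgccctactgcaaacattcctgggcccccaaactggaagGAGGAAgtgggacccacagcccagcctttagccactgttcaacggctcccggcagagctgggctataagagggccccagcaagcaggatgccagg
Ctsg: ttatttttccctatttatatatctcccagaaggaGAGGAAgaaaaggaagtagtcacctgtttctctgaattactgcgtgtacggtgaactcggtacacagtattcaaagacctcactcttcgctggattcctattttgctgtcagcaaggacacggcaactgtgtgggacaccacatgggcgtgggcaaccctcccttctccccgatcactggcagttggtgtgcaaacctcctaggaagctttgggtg
The windows are chr11:87793534-87793783 on the plus strand for Mpo, chr10:79886062-79886311 on the plus strand for Elane, chr10:79879417-79879666 on the plus strand for Prtn3 and, for Ctsg, chr14:56102575-56102824 on the minus strand. GAGGAA was searched on both strands, and it begins at base -247 and -224 relative to the start in Mpo, -85 in Elane, -95 in Prtn3 and -216 in Ctsg, each time on the strand shown. The C/EBP sequence TTNNGCAA, also searched on both strands, was not found in these 4 windows, and no matches to different motifs overlapped. A match is common: 23.1% of all 27025 promoter windows held GAGGAA, 22.6% of those of tested genes, 23.5% of those of genes higher in GMP and 23.4% of those of genes lower. For TTNNGCAA the shares were 9.55%, 7.98%, 8.55% and 7.37%.

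Mpo, the myeloperoxidase that makes hypochlorous acid, read by a probe on chromosome 11 at 87617840 to 87617899 (mm9), stood at 8.30 and 8.79 on the GMP arrays and -3.39 and -0.54 on the hCD4- pro-B arrays. The pro-B arrays thus disagreed with each other, while both lay far under GMP, and the change was 10.51 (standard error 1.26, adjusted p = 2.27e-04), with 13.25 at the other Mpo probe. Ctsg, the protease cathepsin G, stood at 8.29 and 8.54 against -2.78 and -1.82 and was higher by 10.71 (standard error 0.83, adjusted p = 1.69e-05). Elane, neutrophil elastase, stood at 7.32 and 7.62 against -0.17 and -0.28 and was higher by 7.70 (standard error 0.26, adjusted p = 1.70e-07). For both proteases the pro-B arrays were above background, so a signal was measured there, for Elane near the 75th percentile of the array. The Elane probe had similar means of 0.33 and 0.44 in hCD4- and hCD4+ pre-pro-B and 0.70 in pre-B arrays. Whether this signal is elastase transcript was not tested. Prtn3, proteinase 3, stood at 5.72 and 5.22 in GMP and was above background on neither pro-B array, which made it at least 1263-fold higher (change 11.68, standard error 0.54, adjusted p = 8.70e-07). Ms4a3, a membrane protein gene used as a marker of GMP, was at least 1977-fold higher, with levels of 6.08 and 6.16 against -6.90 and -5.59. Clone and accession names aside, no other called gene had a wider bound in the direction of GMP. Of 26 genes on the primary granule list, 24 were tested and 24 were higher in GMP with 0 lower, and the median change was 4.27. The list was chosen with earlier results of these data known. It also holds genes that do not encode primary granule content, such as Ms4a3 and the chaperone gene Calr. Changes ranged from 0.87 (standard error 0.17) for Ctsc, the dipeptidase that activates the granule proteases, to the bound of Ms4a3. Between them lay Igsf6 (8.77, standard error 0.37), the histidine decarboxylase gene Hdc (6.56, standard error 0.46), the cystatin gene Cst7 (5.44, standard error 0.31), the protease inhibitor gene Serpinb1a (2.44, standard error 0.27), the chaperone gene Calr (2.17, standard error 0.14) and the granule proteoglycan gene Srgn (1.47, standard error 0.14). The myeloid hexokinase gene Hk3 was at least 328-fold higher.

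Genes of the later granules did not follow the primary granule genes. Ltf, which encodes lactoferrin of the secondary granules, stood at -5.50 and -6.51 on the GMP arrays, neither above background, and at -0.30 and -1.31 on the hCD4- pro-B arrays, so it was at least 14.2-fold lower in GMP (change -5.20, standard error 0.66, adjusted p = 3.24e-04). Ngp, a secondary granule protein gene, stood at -6.84 and -6.60 against -1.71 and -2.72, and was at least 5.32-fold lower in GMP. Camp, the cathelicidin gene, stood at -3.42 and -3.40 against 0.27 and -0.52, a change of -3.28 (standard error 0.41, adjusted p = 2.88e-04). Both pro-B arrays were thus brighter than either GMP array for these transcripts. S100a9, a subunit of calprotectin, stood at -0.44 and -2.72 against 4.0 and 3.14, a change of -5.15 (standard error 1.44, adjusted p = 0.0190). The S100a9 call ended without GMP replicate 2 (-4.01, adjusted p = 0.112), without hCD4- pro-B replicate 1 (-4.72, 0.0919) and without hCD4- pro-B replicate 2 (-5.58, 0.0534), and its partner S100a8 gave a difference of -1.28 (standard error 1.58) with no call. Members in the other direction were Hp, the haptoglobin gene (5.70 and 5.89 against -2.50 and -2.90, change 8.49, standard error 0.38, adjusted p = 6.92e-07), the leukotriene B4 receptor gene Ltb4r1 (5.70, standard error 0.57), the peptidoglycan-binding protein gene Pglyrp1 (5.03, standard error 0.34), the oxidase gene Cybb (3.37, standard error 0.53) and the collagenase gene Mmp8 (2.65, standard error 0.47), while the chemokine receptor gene Cxcr2 was at least 8.13-fold higher. Of 21 late genes tested of 29 listed, 9 were higher and 9 lower, with a median of -0.09. That is 42.9% each, against 22.1% higher and 23.1% lower of all genes. The lower members include markers of mature neutrophils, whose set was brighter on the hCD4- pro-B arrays as given above, and the part of such cells in these values was not tested.

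**Figure D2:**
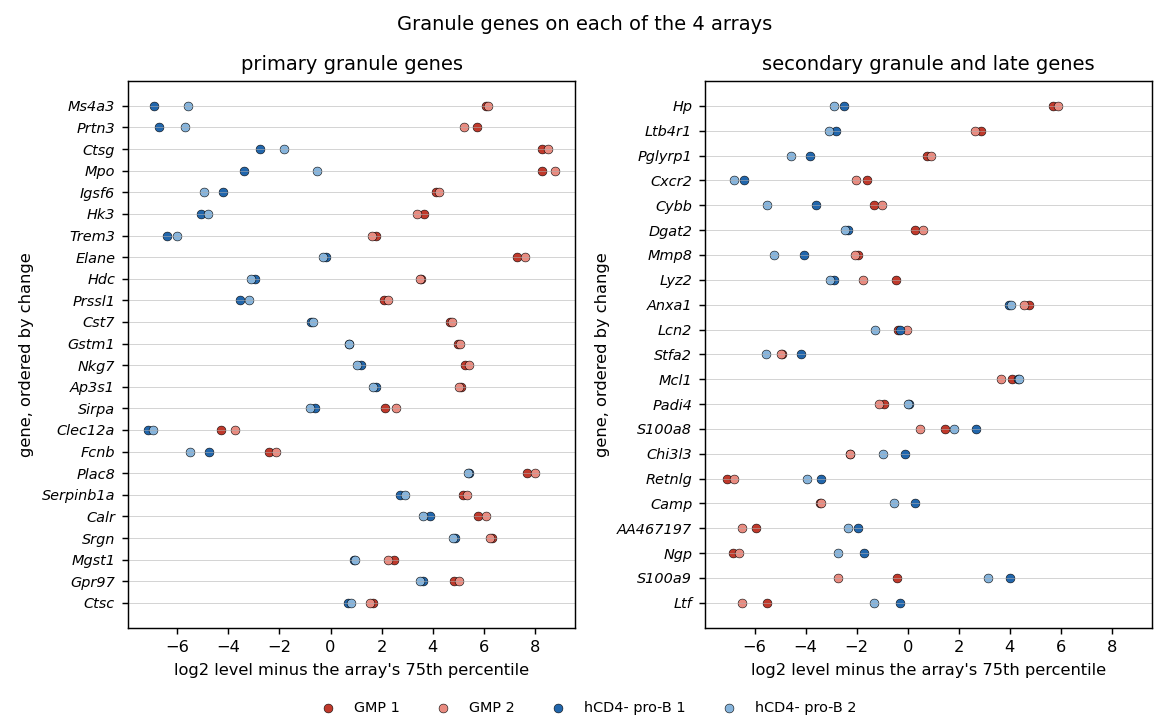
Log2 level (minus each array's 75th percentile) of the 24 primary granule genes (left) and the 21 secondary granule and late genes tested (right) on each of the 2 GMP and 2 hCD4- pro-B arrays, ordered by change. Every gene of the primary granule list is higher on both GMP arrays, while the late genes split, with Hp at the top and Ltf, S100a9 and Ngp at the bottom.

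Genes of monocytes and macrophages were mostly higher in GMP, 21 of 27 tested with 1 lower and a median of 3.60. The lower one was Irf5. Cx3cr1, the fractalkine receptor gene of monocytes, stood at 2.49 and 2.54 against -4.46 and -4.91 and was higher by 7.19 (standard error 0.30, adjusted p = 4.80e-07), or 5.92 at its other probe. The chemokine gene Ccl9 stood at 4.65 and 4.73 against -2.65 and -2.64 and was higher by 7.33 (standard error 0.44, adjusted p = 4.00e-06). The chemokine receptor gene Ccr2, by which monocytes leave the marrow, was at least 88.6-fold higher, Ms4a6c at least 205-fold and the endotoxin co-receptor gene Cd14 at least 27.8-fold, none of them above background in hCD4- pro-B. Tgfbi (6.25, standard error 0.71), the galectin gene Lgals3 (4.89, standard error 0.22), the coagulation factor gene F13a1 (4.48, standard error 0.13) and Emr1, which encodes a macrophage surface receptor (3.13, standard error 0.49), were higher as well. Cd68 (1.19, standard error 0.88) and the cathepsin gene Ctss (0.25, standard error 0.10) were not called. Of the 8 genes of the phagocyte NADPH oxidase, which makes superoxide, 6 were higher and 0 lower, with 5.29 (standard error 0.18) for Ncf1, 3.37 (standard error 0.53) for Cybb and 1.28 (standard error 0.11) for Ncf4.

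Receptors that signal through immunoreceptor motifs divided by lineage. Fcgr3, a low-affinity IgG receptor by which GMP are usually sorted, stood at 1.62 and 0.75 in GMP against -3.45 and -4.09, a change of 4.96 (standard error 0.30, adjusted p = 3.99e-06), and the adaptor genes Fcer1g and Tyrobp were higher by 5.59 (standard error 0.20) and 4.79 (standard error 0.35). In the other direction Fcrla, an Fc receptor-like gene of B cells, was at least 148-fold lower, and the kinase genes Sykb, as the array names Syk (-2.05, standard error 0.12), and Lyn (-1.0, standard error 0.13) were lower. The list of 15 had 8 higher and 6 lower, or 53.3% and 40% against 22.1% and 23.1% of all genes. Among innate sensors, the beta-glucan receptor gene Clec7a was at least 202-fold higher in GMP and Tlr1 at least 6.32-fold, and Tlr2 was higher by 1.55 (standard error 0.15). Tlr4 (-0.69, standard error 0.55) and Tlr9 (-0.25, standard error 0.20) were not called. Of 16 sensors 7 were higher and 1 lower, or 43.8% and 6.25% against 22.1% and 23.1% of all genes.

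Most tested transcripts of eosinophils, basophils and mast cells were higher in GMP. Prg2, the eosinophil major basic protein gene, stood at 3.62 and 2.97 against -3.90 and -4.04 and was higher by 7.27 (standard error 1.25, adjusted p = 0.00174). Epx, eosinophil peroxidase, was at least 39.0-fold higher and the eosinophil ribonuclease genes Ear2 and Ear1 at least 66.1-fold and at least 17.1-fold. Cpa3, carboxypeptidase of mast cells and basophils, was higher by 5.61 (standard error 0.48, adjusted p = 2.91e-05), and the basophil protease gene Mcpt8 by 3.12 (standard error 0.30, adjusted p = 6.78e-05). Of 18 such genes tested of 21 listed, 13 were higher and 0 lower, with a median of 2.84, and Il5ra (1.36, standard error 0.67) and Prss34 (1.17, standard error 0.54) were not called. The Ear genes resemble each other closely, so their probes may not separate them.

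Most regulators of the B lineage were lower in GMP, and several of them, such as Ebf1, Pax5 and Pou2af1, were above background on neither GMP array. Ebf1, the factor that opens the B cell programme, read by a probe on chromosome 11 at 44818438 to 44818497 (mm9), stood at -6.87 and -6.59 on the GMP arrays and 4.12 and 4.04 on the hCD4- pro-B arrays, and was at least 418-fold lower in GMP (change -10.81, standard error 0.43, adjusted p = 3.59e-07). Pax5, which fixes the B cell identity, stood at -6.94 and -5.93 against -0.73 and -0.62 and was at least 15.5-fold lower (change -5.76, standard error 0.31, adjusted p = 1.92e-06, other probe -3.61). Its level in pro-B cells was modest, which limits the bound. Pou2af1, the B cell coactivator OBF1, stood at -6.90 and -6.61 against 5.79 and 5.84 and was at least 1390-fold lower, and Lef1, a Wnt pathway factor of pro-B cells, was at least 1150-fold lower. Foxo1, which drives the Rag genes, was measured in both groups, at -1.37 and -1.21 in GMP and 4.26 and 4.2 in hCD4- pro-B, and changed by -5.52 (standard error 0.13, adjusted p = 3.79e-08). Tcf3, which encodes the E2A proteins, was bright in both, at 1.51 and 1.82 against 3.99 and 4.0, with a smaller change of -2.33 (standard error 0.19, adjusted p = 2.42e-05). Irf4 was at least 159-fold lower and the Ets factor gene Spib at least 484-fold, while Ets1 (-6.16, standard error 0.19) and Bach2 (-6.25, standard error 0.26) were lower with a signal in both groups. Factors shared with early progenitors changed less: Erg (-2.53, standard error 0.51), Sox4 (-1.33, standard error 0.24) and Ikzf1, the Ikaros gene (-1.28, standard error 0.13), were lower, and Myb (0.01, standard error 0.12) was not called. Ikzf3, the Aiolos gene, was dim in hCD4- pro-B, at -3.71 and -3.89, and above background on neither GMP array, which made it at least 1.77-fold lower in GMP (change -1.0, standard error 0.31, adjusted p = 0.0297). It lost the call in 8 of the alternatives, among them those without GMP replicate 1 (adjusted p = 0.158), hCD4- pro-B replicate 1 (0.127) or hCD4- pro-B replicate 2 (0.0762), and the change was -0.23 with normexp and quantile normalization, with no call. Over all alternatives its adjusted p ranged from 0.00310 to 0.181. Of 26 B lineage factors, 20 were lower and 2 higher in GMP, with a median of -1.48. The higher ones were the Helios gene Ikzf2, at least 9.55-fold higher, and Stat5a (0.54, standard error 0.14), whose call ended without GMP replicate 2 (adjusted p = 0.101) or hCD4- pro-B replicate 1 (0.103).

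Promoter sequence of Igll1, Rag1 and Cd79a is shown as the pro-B counterpart. These genes encode a surrogate light chain, the recombinase and a signalling chain of the pre-B receptor. A motif in each window was again fixed in advance, since windows without a searched motif, such as those of Pax5, Dntt, Vpreb3 and Blnk, were left out. The windows again hold 250 bases before the RefSeq start on GRCm38.p6 in the direction of transcription. Capitals mark CCCNNGGG, the core EBF1 sequence, TGTGGTT, a Runx sequence, and GAGGAA, all searched on both strands, or their reverse complements.
Igll1: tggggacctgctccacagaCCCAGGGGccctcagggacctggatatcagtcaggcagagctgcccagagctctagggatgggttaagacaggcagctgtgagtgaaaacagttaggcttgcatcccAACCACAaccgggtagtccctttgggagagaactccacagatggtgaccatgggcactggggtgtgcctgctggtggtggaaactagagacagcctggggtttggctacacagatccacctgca
Rag1: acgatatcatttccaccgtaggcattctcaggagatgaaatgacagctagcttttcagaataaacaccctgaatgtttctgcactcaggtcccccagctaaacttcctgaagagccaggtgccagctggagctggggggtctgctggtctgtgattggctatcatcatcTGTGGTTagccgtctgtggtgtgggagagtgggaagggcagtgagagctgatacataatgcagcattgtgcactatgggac
Cd79a: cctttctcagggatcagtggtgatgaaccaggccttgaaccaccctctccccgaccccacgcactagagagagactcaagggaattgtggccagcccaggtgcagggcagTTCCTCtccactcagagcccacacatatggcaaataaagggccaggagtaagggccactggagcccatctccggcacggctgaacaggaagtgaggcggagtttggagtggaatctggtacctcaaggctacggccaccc
The windows are chr16:16863986-16864235 on the minus strand for Igll1, chr2:101649533-101649782 on the minus strand for Rag1 and, for Cd79a, chr7:24897247-24897496 on the plus strand. Igll1 held CCCNNGGG from base -231 and the reverse complement of TGTGGTT from -124, Rag1 held TGTGGTT from -81 and Cd79a the reverse complement of GAGGAA from -140. CCCNNGGG was found in 11.7% of all promoter windows, in 15% of those of tested genes, in 15.2% of those of genes higher in GMP and 16.4% of those of genes lower, and TGTGGTT in 4.46%, 3.3%, 3.81% and 3.02%.

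The listed pre-B receptor and CD79 genes were all lower in GMP, 6 of 6 with a median of -9.78. Igll1, the lambda5 chain of the surrogate light chain, stood at -4.55 and -4.57 in GMP against 5.42 and 5.64, a change of -10.09 (standard error 0.29, adjusted p = 9.02e-08). Vpreb1, its partner chain, stood at -0.91 and -0.98 against 8.15 and 8.07, with a change of -9.06 (standard error 0.22, adjusted p = 3.94e-08), and Vpreb2, a close copy whose probe may share signal with it, changed by -9.78 (standard error 0.37, adjusted p = 2.89e-07). Vpreb3, with its probe on chromosome 10 at 75412326 to 75412385 (mm9), stood at 7.97 and 7.96 in hCD4- pro-B. It was above background on neither GMP array and was at least 6164-fold lower in GMP. Clone and accession names aside, no called gene had a wider bound. GMP arrays thus had a signal of Vpreb1 above background but none of Vpreb3. Cd79a, a signalling chain of the receptor, stood at -4.26 and -4.06 against 5.59 and 5.66 (change -9.78, standard error 0.28, adjusted p = 9.30e-08, other probe -7.79). Cd79b, the other signalling chain, behaved differently in that GMP arrays were also bright, at 2.99 and 3.16 against 6.97 and 6.92, and its change was -3.87 (standard error 0.12, adjusted p = 1.21e-07).

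Among the genes of V(D)J recombination, the lymphocyte-specific Rag1, Rag2 and Dntt had the largest changes, ahead of the general repair genes. Rag1 and Rag2, the recombinase pair, stood at 3.09 and 3.03 and at 1.92 and 1.83 on the hCD4- pro-B arrays, were above background on neither GMP array and were at least 206-fold and at least 90.7-fold lower in GMP, with changes of -9.03 (standard error 0.35, adjusted p = 3.45e-07) and -7.54 (standard error 0.30, adjusted p = 3.97e-07) and other probes at -7.35 and -4.18. Dntt, terminal transferase, which adds bases at the joins, stood at -3.33 and -3.14 in GMP against 7.92 and 7.84 (change -11.11, standard error 0.14, adjusted p = 5.75e-09). Clone and accession names aside, it was the largest fall with a signal in both groups. Among the end joining genes, Lig4 (-4.33, standard error 0.25), Xrcc5, the Ku80 gene (-3.15, standard error 0.14), the polymerase gene Polm (-2.84, standard error 0.19) and Xrcc6, the Ku70 gene (-1.99, standard error 0.12), were lower, and Prkdc (0.01, standard error 0.23) and Atm (-0.04, standard error 0.20) were not called. Over the list 13 of 19 genes were lower and 2 higher (median -0.92).

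Genes of B cell receptor signalling were mostly lower in GMP. Blnk, the adaptor downstream of the pre-B receptor, stood at -2.82 and -3.21 against 7.38 and 7.29, a change of -10.36 (standard error 0.15, adjusted p = 5.75e-09). The kinase gene Blk was at least 5.6-fold lower, and the surface gene Cd72 (-5.25, standard error 0.12) and the kinase gene Prkcb (-4.77, standard error 0.12) were lower with a signal above background on all 4 arrays. Of 25 genes 17 were lower and 2 higher, with a median of -1.01, and Vav1 (0.12, standard error 0.11) and Malt1 (0.10, standard error 0.12) were not called. Among the surface and stage genes of pro-B cells, 21 of 27 tested were lower and 5 higher (median -5.00). Requiring signal on all 4 arrays, which by construction removes members not measured in 1 cell type, left 7 lower, with a median of -0.45, and the median was -2.2 in the authors' table. Gfra2, a receptor of the GDNF family, was at least 971-fold lower, Ly6d, a marker of B-biased lymphoid progenitors, at least 516-fold and Bst1, a marrow stromal and lymphoid surface enzyme, at least 140-fold. The genes of this list that were higher in GMP included Kit and Spn, which encodes CD43 (0.72, standard error 0.10). Genes known for later B cell stages were lower in GMP too, 19 of 25 with 1 higher and a median of -4.23, or 7 lower and a median of -0.99 with signal required on all 4 arrays, and a median of -1.65 in the authors' table. They included the BAFF receptor gene Tnfrsf13c (-7.17, standard error 0.15, adjusted p = 2.57e-08, other probe -1.63), the interleukin 2 receptor gene Il2ra (at least 29.8-fold), the chemokine receptor genes Cxcr5 (at least 7.71-fold) and Ccr7 (-6.23, standard error 0.32), the lymphotoxin gene Ltb (-5.63, standard error 0.19), Ms4a1, which encodes CD20 (at least 6.33-fold), and Cd40 (at least 5.62-fold).

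Il7r, the alpha chain of the interleukin 7 receptor, stood at -6.79 and -6.52 in GMP, not above background, and 3.42 and 3.25 in hCD4- pro-B, and was at least 249-fold lower (change -9.99, standard error 0.14, adjusted p = 5.75e-09). The STAT5 target genes Cish (-2.89, standard error 0.58) and Socs2 (at least 37.1-fold) were lower too, as were the common gamma chain gene Il2rg (-1.37, standard error 0.29), the cyclin gene Ccnd3 (-2.68, standard error 0.15), the survival gene Bcl2l1, which encodes BCL-XL (-3.01, standard error 0.16), and Mycn (at least 4.04-fold). In the opposite direction Bcl2 was higher in GMP by 2.10 (standard error 0.26) and Myc by 1.57 (standard error 0.37), the latter losing its call without hCD4- pro-B replicate 1 (adjusted p = 0.0513). Of 22 genes 13 were lower and 5 higher, with a median of -1.05, and without single arrays the higher ones fell to 2 (without hCD4- pro-B replicate 1) or 3 (without GMP replicate 1 or hCD4- pro-B replicate 2). Of 16 early lymphoid priming genes 13 were lower and 1 higher (median -1.84), among them Il7r, Dntt and the Rag genes already described. Antibody heavy chain transcripts read by the Igh-VJ558 probe, named for a large family of variable segments, stood at -6.80 and -6.50 against 6.20 and 6.10 and were at least 1759-fold lower in GMP, with -11.87, -6.09 and -4.22 at its other probes. Levels of this probe varied among the other B lineage groups, with 0.67 and -5.26 on the 2 hCD4+ pro-B arrays, 5.30 and 6.67 on the hCD4- and -3.80 and -4.06 on the hCD4+ pre-pro-B arrays and -4.93 and -3.02 on the pre-B arrays. Igj, the joining chain gene (now Jchain), was at least 110-fold lower, at -6.79 and -6.54 against 2.36 and 1.95. The summed signal of the plasma cell markers, which include Igj itself, was higher on the same pro-B arrays, as given above. Among these markers Mzb1 was the brightest on those arrays, Tnfrsf17 was below background in both groups and Xbp1 was higher in GMP. The part of plasma cells in the Igj value was not tested. Class II presentation genes split: H2-Eb1 (-5.6, standard error 0.42), Cd74, the invariant chain (-4.87, standard error 0.53), and H2-Aa (at least 4.74-fold) were lower in GMP, while the peptide-loading genes H2-DMb1 (2.76, standard error 0.19) and H2-DMa (2.19, standard error 0.51) were higher, H2-DMa losing its call without GMP replicate 1 (1.70, adjusted p = 0.0579). Of 12, 7 were lower and 2 higher, or 58.3% and 16.7% against 23.1% and 22.1% of all genes.

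**Figure D3:**
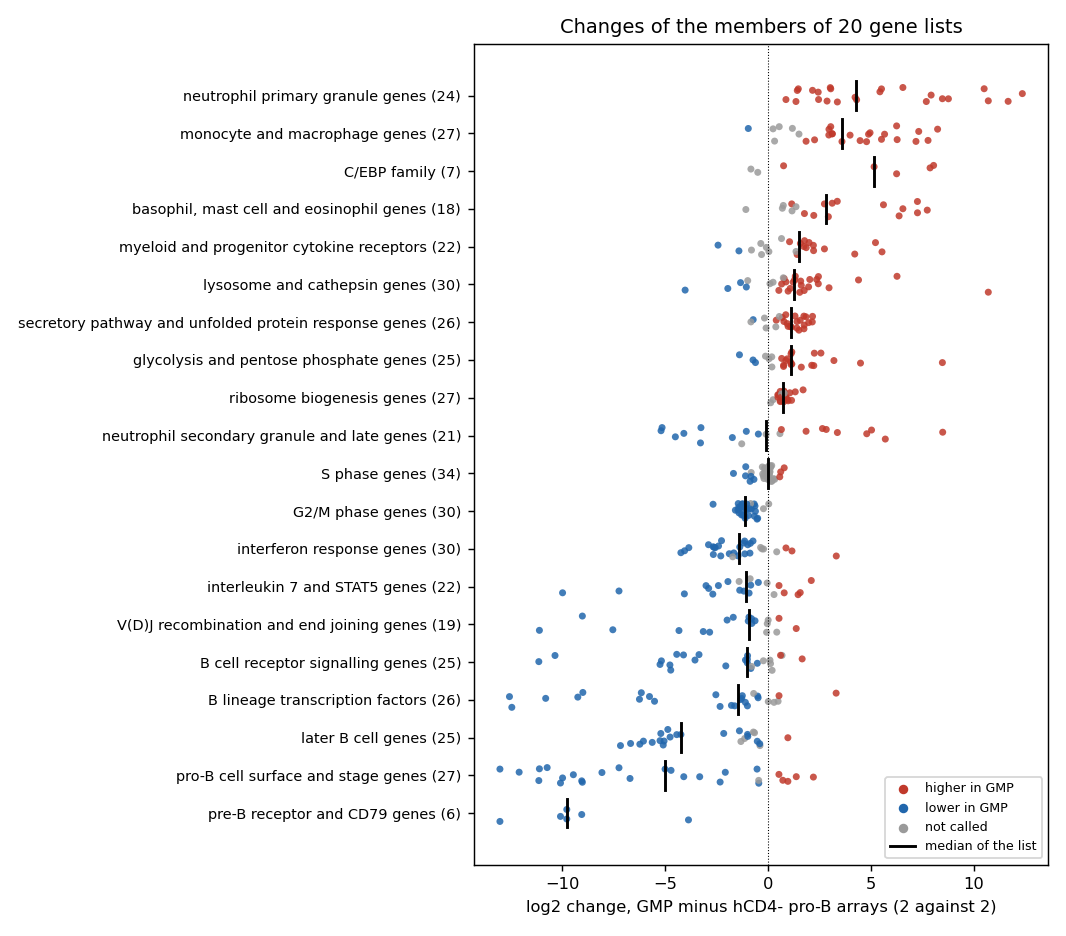
Log2 change (GMP minus hCD4- pro-B, 2 arrays against 2) of each tested member of 20 gene lists; points are coloured by the adjusted p over all genes, and the bar is the list's median. All 24 tested genes of the primary granule list lie to the right and all 6 pre-B receptor and CD79 genes to the left, while S phase genes centre near 0.

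Several genes named for other lymphocytes were on the pro-B side. Lck, a kinase known from T cells, stood at -1.66 and -1.97 in GMP against 3.27 and 3.42, a change of -5.17 (standard error 0.14, adjusted p = 7.91e-08), and Zap70 at 1.72 and 2.00 in hCD4- pro-B was at least 89.8-fold lower in GMP. The surface gene Thy1 (-5.03, standard error 0.17) and the factor gene Tcf7 (at least 3.45-fold) were lower as well. The T cell receptor complex gene Cd3d was dim in pro-B arrays, at -3.07 and -4.01, and at least 2.12-fold lower in GMP, while Cd3e (0.39, standard error 0.42) was not called. Mouse Cd4 differed by 0.13 (standard error 0.14) with no call, and its probe says nothing of the human reporter. Of 16 T cell genes tested of 22 listed, 7 were lower and 2 higher, or 43.8% and 12.5% against 23.1% and 22.1% of all genes. The median of this list was -0.09 and its largest rise 1.85. Natural killer receptor genes Klrb1c and Klrd1 were at least 3.89-fold and at least 2.86-fold lower in GMP, whereas Nkg7 was higher by 4.23 (standard error 0.12). This list of 8 tested of 17 had 4 lower and 1 higher, or 50% and 12.5% against 23.1% and 22.1% of all genes. The summed markers of plasmacytoid dendritic cells had a log2 signal of 6.58 and 6.62 in GMP and 6.71 and 6.72 in hCD4- pro-B. That sum was set mostly by Siglech, the brightest of the 6 markers in both groups. The mean level of the markers was 0.483 and 0.415 in GMP against 1.929 and 1.745. Above background were 4 and 4 of 6 against 6 and 6. The brightest Siglech probe stood at 6.20 and 6.17 against 6.24 and 6.30, with a difference of -0.08 (standard error 0.19) and no call, although the other Siglech probes gave -0.51 and -5.82. Bst2 (0.42, standard error 0.27) was not called either, while Tcf4 (-1.78, standard error 0.22) was lower and the interferon factor gene Irf7 (at least 3.32-fold) too. Over the list 4 of 19 were higher and 8 lower, or 21.1% and 42.1% against 22.1% and 23.1% of all genes. Classical dendritic cell genes had 3 of 9 higher, among them the lectin gene Clec10a (3.35, standard error 0.70) and Cst3 (1.61, standard error 0.15), and 3 lower, among them Id2 (-2.36, standard error 0.27). Their shares were 33.3% each, against 22.1% higher and 23.1% lower of all genes. Of 14 plasma cell genes 6 were higher and 7 lower, or 42.9% and 50% against 22.1% and 23.1% of all genes. The higher ones included the secretory genes Xbp1 (1.41, standard error 0.14) and Fkbp11 (at least 14.4-fold).

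Genes of early progenitors were more often higher in GMP. Cd34, a surface sialomucin by which GMP are usually sorted, stood at 6.24 and 6.19 in GMP and -1.48 and -5.19 in hCD4- pro-B, where only the first array was above background, a change of 9.55 (standard error 0.97, adjusted p = 8.62e-05), with 3.50 at its other probe. Hlf and Procr, genes of stem cells, were at least 10.3-fold and at least 4.37-fold higher, and Angpt1 (2.98, standard error 0.25), Lmo2 (2.82, standard error 0.15) and Tal1 (2.44, standard error 0.30) were higher. Of 24 stem and multipotent progenitor genes tested of 29 listed, 13 were higher and 3 lower, with a median of 0.68. Hoxa, Meis and Pbx genes gave 4 higher and 2 lower of 14, or 28.6% and 14.3% against 22.1% and 23.1% of all genes. Fewer were higher without GMP replicate 2 or without either hCD4- pro-B replicate. The Id proteins, which block E proteins, differed in direction: Id1 was higher in GMP by 1.87 (standard error 0.30), while Id3 stood at -3.57 and -3.56 against 2.66 and 2.28, a change of -6.04 (standard error 0.34, adjusted p = 2.47e-06). Of the 9 E protein and Id factors 5 were lower and 2 higher, or 55.6% and 22.2% against 23.1% and 22.1% of all genes. Adhesion genes higher in GMP included Vcam1 (at least 6.49-fold), the integrin gene Itgb7 (3.23, standard error 0.37) and Cd44 (1.35, standard error 0.14), whereas Itga4 was lower (-1.29, standard error 0.11). This list had 11 of 19 higher and 3 lower, or 57.9% and 15.8% against 22.1% and 23.1% of all genes. Of 14 chemokine receptors 3 were higher, Ccr2, Cx3cr1 and Cxcr2, and 5 lower, among them Ccr7 and Cxcr5, described above, or 21.4% and 35.7% against 22.1% and 23.1% of all genes. Erythroid genes had 8 of 18 lower and 3 higher, or 44.4% and 16.7% against 23.1% and 22.1% of all genes. The largest change of that list was a rise of 4.06. Lower members included the water channel gene Aqp1 (-3.46, standard error 0.61), the carbonic anhydrase gene Car2 (-3.05, standard error 0.24) and the haemoglobin-stabilising gene Ahsp (at least 7.44-fold). The lower ones numbered 5 without GMP replicate 1, without hCD4- pro-B replicate 1 or without hCD4- pro-B replicate 2, and the erythroid markers were brighter on the pro-B arrays, as given above. Megakaryocyte genes had 3 higher, 1 without GMP replicate 1, and 2 lower of 12, or 25% and 16.7%, close to the shares over all genes.

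Most mitotic genes were lower in GMP, and most genes of DNA replication were not called. Of 30 G2/M genes 27 were lower, 18 by over 1 on the log2 scale, and 0 higher, with a median of -1.10, and 17 of 30 were still lower with array-median scaling. Mki67, the proliferation marker Ki-67, stood at 4.89 and 5.09 in GMP and 6.49 and 6.38 in hCD4- pro-B, so both were bright, and its change was -1.45 (standard error 0.16, adjusted p = 1.29e-04). The cyclin gene Ccnb1 changed by -1.40 (standard error 0.17, adjusted p = 2.06e-04), the kinase gene Plk1 by -1.13 (standard error 0.16) and the kinetochore genes Ndc80 and Cenpf by -1.59 (standard error 0.21) and -2.67 (standard error 0.27). Of 34 S phase genes 3 were higher and 6 lower, with a median of 0.02. Their shares, 8.82% and 17.6%, lay under the 22.1% and 23.1% of all genes. With array-median scaling 7 were higher, and with normexp and quantile normalization 10 were lower. The replication helicase genes Mcm2 (0.07, standard error 0.15) and Mcm5 (-0.01, standard error 0.17) were not called, and the ribonucleotide reductase gene Rrm2 (-1.09, standard error 0.12) was lower. The D cyclins differed by cell type: Ccnd1 stood at 0.94 and 0.95 in GMP against -1.36 and -2.71, a change of 2.98 (standard error 0.51, adjusted p = 0.00169), and Ccnd3 at 4.40 and 4.64 against 7.25 and 7.16, a change of -2.68 (standard error 0.15, adjusted p = 2.75e-06). The inhibitor genes Cdkn1b (-2.02, standard error 0.13), Cdkn1c (-2.99, standard error 0.37) and Cdkn2a (at least 2.25-fold) were lower in GMP, and 9 of 14 genes of this list were lower with 3 higher, or 1 higher without hCD4- pro-B replicate 1. Of 14 Bcl2 family genes 5 were higher (fewer without hCD4- pro-B replicate 1) and 5 lower, or 35.7% each against 22.1% and 23.1% of all genes. Bcl2a1d was at least 5.41-fold higher and Bcl2 and the death gene Bid were higher (1.62, standard error 0.15), while the death genes Bmf (at least 50.5-fold), Bok (-6.42, standard error 0.23) and Bcl2l11, which encodes BIM (-1.32, standard error 0.21), were lower along with Bcl2l1.

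Genes of biosynthesis and energy metabolism were mostly higher in GMP. Of 26 genes of the secretory pathway and its stress response 20 were higher and 1 lower (median 1.12), among them the folding enzyme gene P4hb (2.15, standard error 0.23), the translocon gene Sec61a1 (1.76, standard error 0.09) and the chaperone gene Hspa5 (1.14, standard error 0.17). Lysosomal genes had 22 of 30 higher and 4 lower (median 1.26), with Cd63, a granule and lysosome membrane protein gene (6.27, standard error 0.17, adjusted p = 7.91e-08), Ctsh (4.40, standard error 0.34) and Ctsd (1.59, standard error 0.18) higher and the protease gene Lgmn (-4.03, standard error 0.10) lower. Of 25 glycolysis and pentose phosphate genes 18 were higher and 3 lower (median 1.09). Ldhb stood at 2.43 and 2.67 against -1.95 and -1.94 (4.50, standard error 0.36, adjusted p = 1.96e-05), Hk2 was higher by 3.21 (standard error 0.33), and G6pdx (2.57, standard error 0.16) and Pgd (2.25, standard error 0.14), which supply NADPH, were higher as well, whereas Gapdh (0.18, standard error 0.15) was not called. Ribosome biogenesis genes were higher by small amounts, 22 of 27 with 0 lower and a median of 0.72, led by Wdr12 (1.71, standard error 0.12) and Rrp12 (1.33, standard error 0.29), and 13 were higher in a fit of the 4 arrays with the replicate number as a block.

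Interferon-stimulated genes were mostly lower in GMP, 22 of 30 with 3 higher and a median of -1.41. Rtp4 stood at -1.71 and -2.40 in GMP against 2.06 and 2.30 in hCD4- pro-B, a change of -4.23 (standard error 0.24, adjusted p = 2.80e-06), and the RNA sensor gene Ddx58 at -1.37 and -1.67 against 1.33 and 1.41, a change of -2.89 (standard error 0.14, adjusted p = 8.90e-07). Ifi44 was at least 12.8-fold lower, and Isg15, a ubiquitin-like protein gene, changed by -1.88 (standard error 0.23, adjusted p = 2.28e-04). The higher ones were Ifitm1 (3.32, standard error 0.35), Ifitm3 (1.17, standard error 0.15) and Ifih1 (0.87, standard error 0.13). Of 15 DNA methylation and TET genes 3 were higher and 6 lower, or 20% and 40% against 22.1% and 23.1% of all genes. With array-median scaling 5 were higher. Tet2 was higher by 1.44 (standard error 0.17, adjusted p = 1.82e-04), Tet1 was lower (-1.36, standard error 0.15, adjusted p = 1.20e-04) and the maintenance methyltransferase gene Dnmt1 (-0.05, standard error 0.19) was not called. Genes that respond to handling gave 1 higher and 2 lower of 18, or 5.56% and 11.1%, under the shares over all genes. Fos (0.95, standard error 0.43) and Jun (-0.10, standard error 0.24) were not called. Hspa1a, a heat shock gene, stood at 4.34 and 2.18 in GMP and -1.57 and 1.52 in hCD4- pro-B, with a difference of 3.29 (standard error 1.59) and no call.

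**Figure D4:**
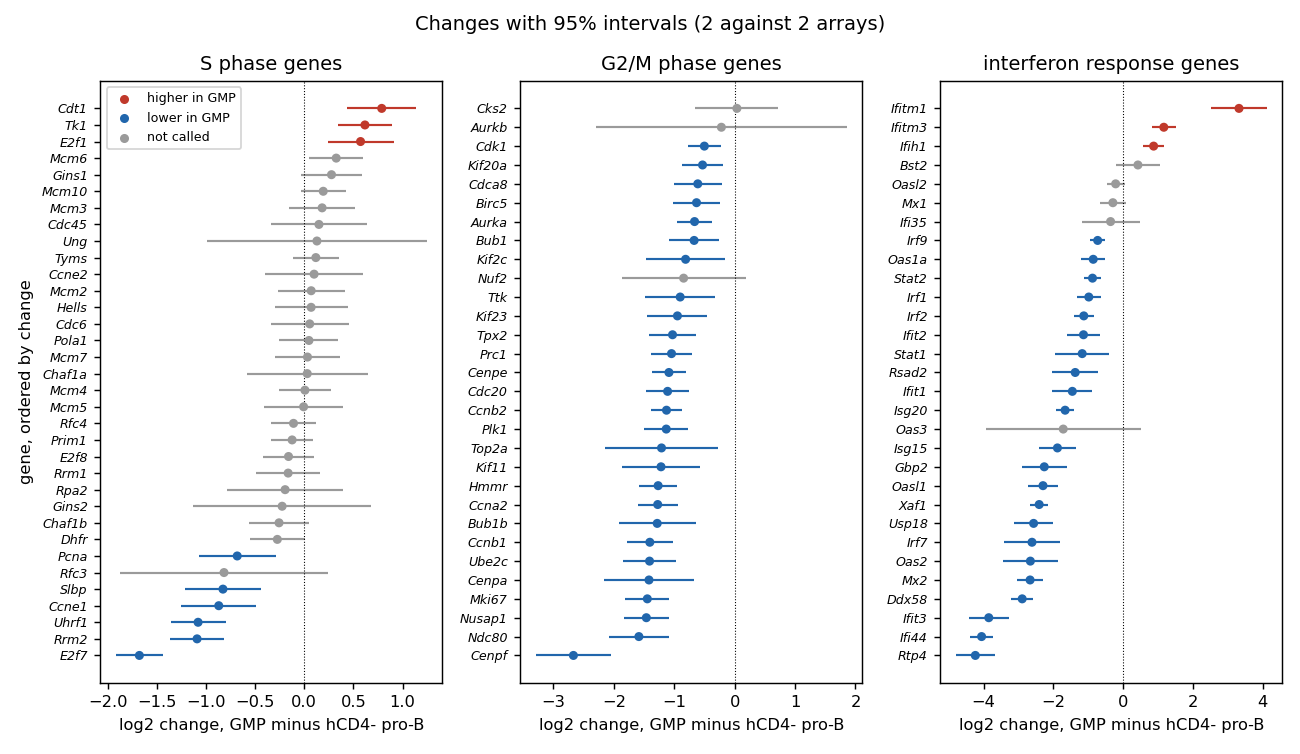
Log2 change (GMP minus hCD4- pro-B, 2 arrays against 2) with its 95% interval for every tested S phase, G2/M phase and interferon response gene, coloured by call. Of the G2/M genes 27 of 30 lie below 0 and are called, against 6 of 34 S phase genes and 22 of 30 interferon response genes.

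Some of the largest differences lay outside these lists. Gpc1, a heparan sulfate proteoglycan gene, stood at 4.83 and 5.47 in GMP against -2.93 and -2.71, a change of 7.97 (standard error 0.23, adjusted p = 8.72e-08), and Gda, guanine deaminase, at 3.41 and 3.55 against -3.76 and -3.27, a change of 7.0 (standard error 0.24, adjusted p = 1.87e-07), with 5.58 at its other probe. Mefv, which encodes the inflammasome protein pyrin, was at least 323-fold higher, though its other probe gave 3.43, and the dermokine gene Dmkn was at least 179-fold higher. On the pro-B side Bfsp2, a lens filament gene, stood at 6.56 and 6.38 against -2.15 and -1.93 in GMP, a change of -8.51 (standard error 0.14, adjusted p = 6.44e-09). The radial spoke gene Rsph9 (-8.06, standard error 0.30), Trp53i11 (-7.96, standard error 0.12), Smtnl2 (-7.40, standard error 0.23) and Colq, the collagen tail of acetylcholinesterase (-7.02, standard error 0.31, other probe -3.20), completed the largest falls. At the other extreme, 2029 genes (10.9%) had a 95% interval of the change within 0.5 of 0. Among the brightest were the ribosomal protein genes Rpl37a (0.14, standard error 0.16), Rpl41 (0.10, standard error 0.16), Rplp2 (0.06, standard error 0.15) and Rps16 (0.01, standard error 0.17) and the translation-associated gene Tpt1 (-0.06, standard error 0.13). Probes of 129 called genes were above background in neither of the 2 groups, so for them the direction rests on dim values. Genes named only by a clone or accession (6311) are left unnamed here.

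Whether these differences depend on the reporter status of the pro-B cells was asked by testing hCD4+ against hCD4- pro-B arrays in the same fit, in which GMP cancel. The hCD4+ pro-B arrays lie on yet another slide, so slide and reporter status cannot be told apart. That test called 3814 genes (20.6%), and 19 of the 37 reference genes. Primary granule genes were among them: Mpo stood at 6.64 and 6.55 on the hCD4+ pro-B arrays, below the 8.30 and 8.79 of GMP, and exceeded the hCD4- pro-B arrays by 8.56 (standard error 1.26, adjusted p = 0.00326). Prtn3 at 1.45 and 0.87, Ms4a3 at 0.98 and 1.02 and Cebpa at -1.46 and -1.95 were above background on both hCD4+ pro-B arrays and on neither hCD4- one, so the difference is a bound. It was at least 63.6-fold for Prtn3, at least 56.7-fold for Ms4a3 and at least 8.72-fold for Cebpa, and the fit gave adjusted p = 1.63e-04, 2.21e-04 and 9.61e-04. Since hCD4 is driven by Cebpa sequence, the Cebpa difference was to some degree selected here as well. The hCD4+ pro-B arrays thus lay between hCD4- pro-B and GMP for these 3 genes. Other C/EBP genes did so too, with Cebpb at -0.04 and 0.03 (1.81, standard error 0.23, adjusted p = 0.00175), Cebpd at 0.22 and 0.18 (2.40, standard error 0.46, adjusted p = 0.00966) and Cebpe at -0.64 and -0.80 (3.17, standard error 0.53, adjusted p = 0.00554). Gfi1 lay further from GMP than in hCD4- pro-B, at 1.71 and 1.71 (-0.84, standard error 0.20, adjusted p = 0.0202), and Flt3 at 2.66 and 2.54 lay above both GMP and hCD4- pro-B (2.63, standard error 0.33, adjusted p = 0.00164). Of the B lineage regulators Foxo1 (-0.61, standard error 0.13, adjusted p = 0.0145) and Tcf3 (-0.68, standard error 0.19, adjusted p = 0.0412) differed by small amounts, while Ebf1 stood at 3.56 and 3.47 and differed by -0.57 (standard error 0.43, adjusted p = 0.386) and Pax5 at -1.21 and -1.33 by -0.60 (standard error 0.31, adjusted p = 0.205), with no call.

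**Figure D5:**
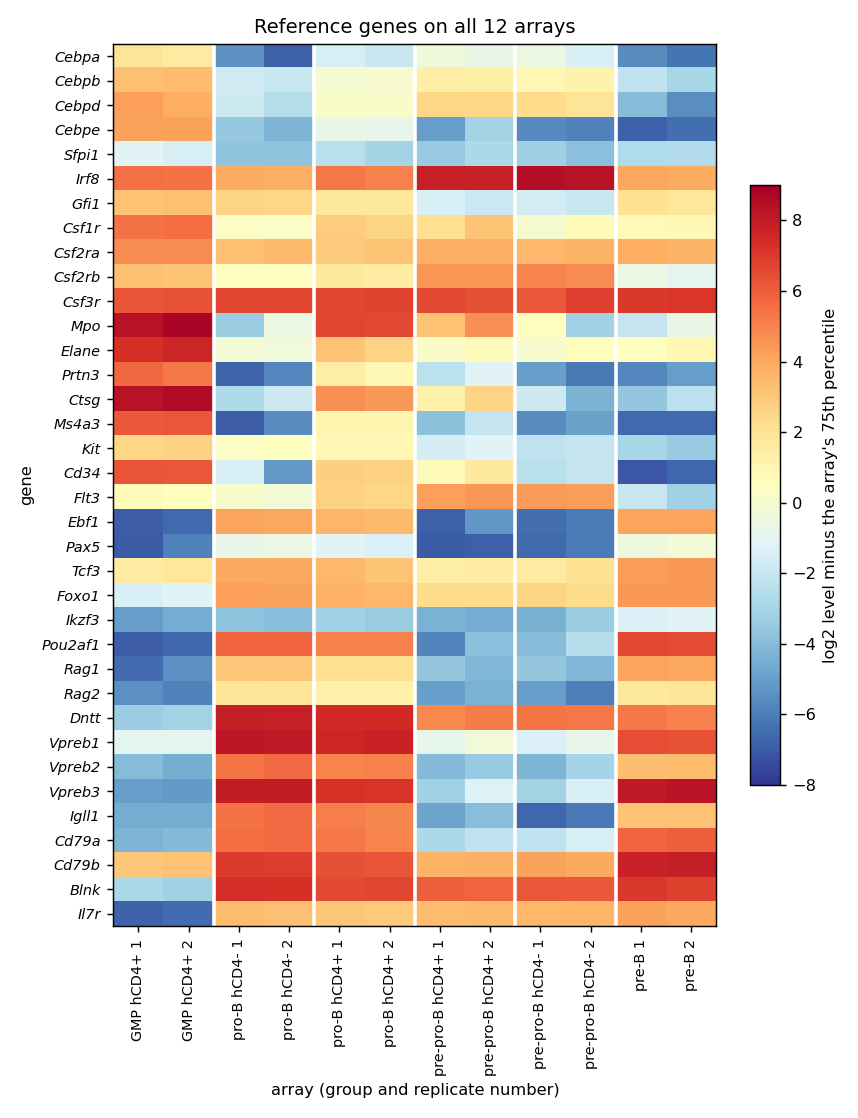
Log2 level (minus each array's 75th percentile, colour scale) of 36 of the 37 reference genes in rows on all 12 arrays in columns, grouped by cell type, with GMP and hCD4- pro-B first. The C/EBP and granule genes are high in GMP and low in hCD4- pro-B arrays, hCD4+ pro-B arrays are intermediate for many of them, and the B lineage genes from Ebf1 to Il7r are lower in GMP than in hCD4- pro-B arrays.

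Set among all 6 groups, the reference genes of the 2 cell types were not always at their highest in them. Irf8 had its highest mean in hCD4- pre-pro-B arrays (8.36), with 5.48 in GMP and 3.82 in hCD4- pro-B, and Csf2rb likewise (4.88 against 3.18 and 0.44). Il7r and Blnk were already bright in hCD4- pre-pro-B arrays, at means of 3.58 and 6.14, against 3.33 and 7.34 in hCD4- pro-B and -6.65 and -3.02 in GMP. Ebf1, by contrast, had means of -6.24 and -6.07 in the pre-pro-B groups, as low as in GMP (-6.73), and was measured above background in pro-B and pre-B arrays alone. Mpo, Prtn3, Ctsg, Elane, Ms4a3 and Cebpe had their highest mean in GMP among the 6 groups.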

How the data were processed

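Total RNA of sorted mouse marrow cells was amplified, labelled with Cy3 and hybridised to 1-colour Agilent arrays. Per the file headers, spots were quantified by the authors with Agilent Feature Extraction 10.7.3.1, whose processed signal is a background-corrected intensity that is not normalized between arrays, and probe positions are on mm9. The deposited value table of the same arrays was used as an alternative. Against the scanner files its values behaved as log2 intensity, with the median of every array at 6.5, and how the authors centred it is not given in the sources used here.

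From the intensities, control spots and outlier-flagged spot values (2469 over the 12 arrays) were left out, log2 processed signal was taken minus each array's 75th percentile, and spots of a probe were averaged. Of 39429 probes, 23301 were kept, those that at least 1 group showed well over background on both its arrays. The kept probe with the highest mean stood for each gene, and 3907 genes had several. A limma 3.58.1 model (R 4.3.3) of the 6 group means over 12 arrays was fitted to 18559 genes (6 residual and 2.14 prior degrees of freedom) and tested on simulated data, with Benjamini-Hochberg adjustment over all genes. Intervals are at 95%. A fold written as "at least" is the mean of the brighter group against the dimmer group's mean of, per array, the higher of the lowest signal among probes well above background and the dim probe's own. Such a bound holds for this processing and the chosen probe, and not for every alternative.

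Named were 37 reference genes, the 12 largest rises and falls measured in both groups, the 8 widest bounds in each direction, the 6 brightest alike genes and up to 6 members of each list by size of change. Clone, accession and predicted-gene names were left out of the rankings of rises, falls, bounds and alike genes. Further list members were named after their values were seen. Some genes that the rule picks are not reported here. Members and lists were chosen with earlier results of these data known. Gene names are those of the array, and 12822 genes were matched to RefSeq by accession, 1408 of them under another symbol. Near-identical genes (Vpreb1 and Vpreb2, Ear1 and Ear2, the Igh-VJ558 segments, Bcl2a1 copies) are uncertain. Of the reference genes 29 of 37 had a RefSeq promoter window, and only windows that held a searched motif could be shown. Deviations of equal replicate numbers correlated at -0.0068 between GMP and hCD4- pro-B and at over 0.1 in 10 of 15 pairs of groups (highest 0.2552), not in all, so the numbers were not taken as a pairing. Alternatives covered normalization, background correction, the dim-probe filter, probe choice, the arrays in the fit, array weights, a replicate block and leaving out each array.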

Additional observations from a re-analysis of the deposited data

Results flagged for a closer look

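The change from hCD4- pro-B to GMP and the change from hCD4+ pro-B to GMP differed at 19 of the 37 reference genes, tested in the same limma fit as hCD4+ minus hCD4- pro-B (2 arrays against 2) and adjusted over all genes. At 14 of them the hCD4+ pro-B arrays were the higher ones.

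Among transcription factors the difference was 4.41 on the log2 scale for Cebpa, 1.81 for Cebpb, 2.40 for Cebpd, 3.17 for Cebpe and 1.38 for Irf8. The hCD4 gate is itself driven by Cebpa sequence, so the Cebpa value was in part selected. Granule genes differed by 8.56 for Mpo, 7.36 for Prtn3, 7.24 for Ms4a3, 6.84 for Ctsg and 3.09 for Elane. Surface genes differed by 6.04 for Cd34, 2.63 for Flt3, 2.44 for Csf1r and 1.18 for Csf2rb. Cebpa, Prtn3 and Ms4a3 were above background on neither hCD4- pro-B array, so their fitted values rest on dim signals there. Against the lowest signal measured on those arrays they were at least 8.72-fold, 63.6-fold and 56.7-fold higher in hCD4+ pro-B. Cd34 was above background on 1 of the 2 hCD4- pro-B arrays.

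The 5 genes lower in hCD4+ pro-B arrays were Gfi1 (-0.84), the adaptor gene Blnk (-0.73), Tcf3 (-0.68), Foxo1 (-0.61) and Cd79b (-0.61), each by under 1 on the log2 scale. The 2 pro-B groups lie on different slides and scans, so here too the slide and the cell type cannot be told apart. With 2 arrays a group, no test for outlying arrays was made.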

How the results depend on the processing

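Over the 19 alternatives run, the genes called higher in GMP numbered 2766 to 5806, against 4102, and those called lower 3027 to 4676, against 4292. Array-median scaling gave 5806 higher and 3027 lower, while the other scalings stayed near the main split. Leaving out 1 array at a time gave 2963 to 3530 higher and 3328 to 3771 lower. A replicate block, not taken as a pairing since equal numbers correlated at over 0.1 in 10 of 15 pairs of groups and not in all, gave 4255 higher and 4472 lower in the fit of 12 arrays and 2766 and 3270 in that of the 4 arrays. Of the 8394 called genes 2 changed direction in the authors' table and 3 with the mean of kept probes, none of them named. Of 205 called genes named, 198 kept call and direction in every alternative that tested them, and Gfi1, H2-DMa, Ikzf3, Irf5, Myc, S100a9 and Stat5a lost the call in at least 1 with no change of direction. Requiring signal on all 4 arrays left 14708 genes and by construction removed members not measured in 1 cell type. The median of the secondary granule, class II, plasma cell, T cell, natural killer, dendritic, Hoxa, S phase, DNA methylation and handling lists changed sign under at least 1 alternative. A slide block was not run, since no slide holds both groups. Dim probes limit the folds to lower bounds, and these bounds hold only for the main processing and the probe chosen. Some alternatives gave smaller changes. On the log2 scale they were as small as -1.75 for Rag2, -1.95 for Pax5, -4.35 for Igh-VJ558, 4.58 for Cebpa and 1.1 for Vcam1.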
